A study of Staurois parvus with 11 samples.

Results

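The transcripts described here are those that the annotation of the *Staurois parvus* genome names as receptors for glutamate, GABA or glycine. They were the count rows whose first transcript had an annotation text opening with a gene symbol of the AMPA, delta, kainate or NMDA receptor subunits (GRIA, GRID, GRIK, GRIN), the metabotropic glutamate receptors (GRM), the GABA-A, GABRR and GABA-B receptor subunits (GABR, GABBR) or the glycine receptor subunits (GLRA, GLRB). A count row is 1 transcript, or a set of transcripts that share reads. Of 23777 count rows, 22 met this rule, and 21 of them, with 19 gene IDs and 17 symbols, are described and counted below as the members. They comprise 3 AMPA rows, 1 kainate row, 3 NMDA rows, 5 metabotropic glutamate rows, 5 GABA-A rows, 2 GABRR rows, 1 GABA-B row and 1 row (GRID2IP) that encodes a binding partner of a receptor and not a receptor. All 21 passed the filter on low counts. The rule took rows by these symbols alone, so subunits that the annotation names otherwise or not at all could not become members. The annotation text names the matched protein and its species, which was human for 10 rows, rat for 4, mouse for 3, cattle for 2, chicken for 1 and orangutan for 1, so the roles given below are those known from mammals and birds.

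Glutamate is the main excitatory transmitter of the vertebrate brain and spinal cord, and GABA and glycine are the main inhibitory ones. AMPA, kainate and NMDA receptors are cation channels that glutamate opens, GABA-A, GABRR and glycine receptors are chloride channels, and metabotropic glutamate and GABA-B receptors act through G proteins. Each channel is built of several subunits, so the subunits that a tissue transcribes set which receptors it can assemble. In frogs, as in other vertebrates, motor neurons of the spinal cord receive both glutamatergic and inhibitory input, while the synapse between motor neuron and skeletal muscle uses acetylcholine.

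RNA was sequenced in 2 libraries of whole brain, 4 of spinal cord and 5 of thigh muscle, called leg muscle, of adult male frogs from a captive colony, with no treatment named in the labels. The labels call the libraries of each tissue biological replicates but name no frog, so it is not known which tissues share an animal, and p-values measure the spread between these samples. Transcripts held 15728514 and 22686688 reads in the 2 brains, 12339432 to 18607450 in spinal cord and 31242008 to 56082082 in leg muscle. Levels are counts per 1000000 reads (CPM) scaled with TMM, the trimmed mean of M-values, with SD over libraries. A count of 0 in a library allows a level of up to 0.0841 to 0.228 CPM, the range over libraries of the level of 3 counts. Transcripts with an adjusted p under 0.05 are called differentially expressed genes (DEGs), by edgeR's quasi-likelihood test, with Benjamini-Hochberg adjustment across 13923 tested transcripts. The spread of a transcript is estimated once over all 3 tissues, so leg muscle libraries also enter the test of brain against spinal cord. Lane 2 of the sequencer held spinal cord libraries 1 and 2, and lane 1 the others. Markers of skeletal muscle summed to 2755 and 2872 CPM in spinal cord libraries 1 and 2, to 403 and 97.2 in libraries 3 and 4, and to 62.5 and 363 in brain, against 350866 to 923902 in leg muscle. In whole tissues, fewer cells of a type and less RNA per cell cannot be told apart.

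Together the 21 members took 26708 and 25172 reads in the 2 brains, 11826 to 17379 in spinal cord and 148 to 366 in leg muscle. Every member was detected in both brains. In the spinal cords only one GRM2 row lacked reads in some libraries. The class of each member and its level in each library are drawn in the plot of member levels.

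**Figure D1:**
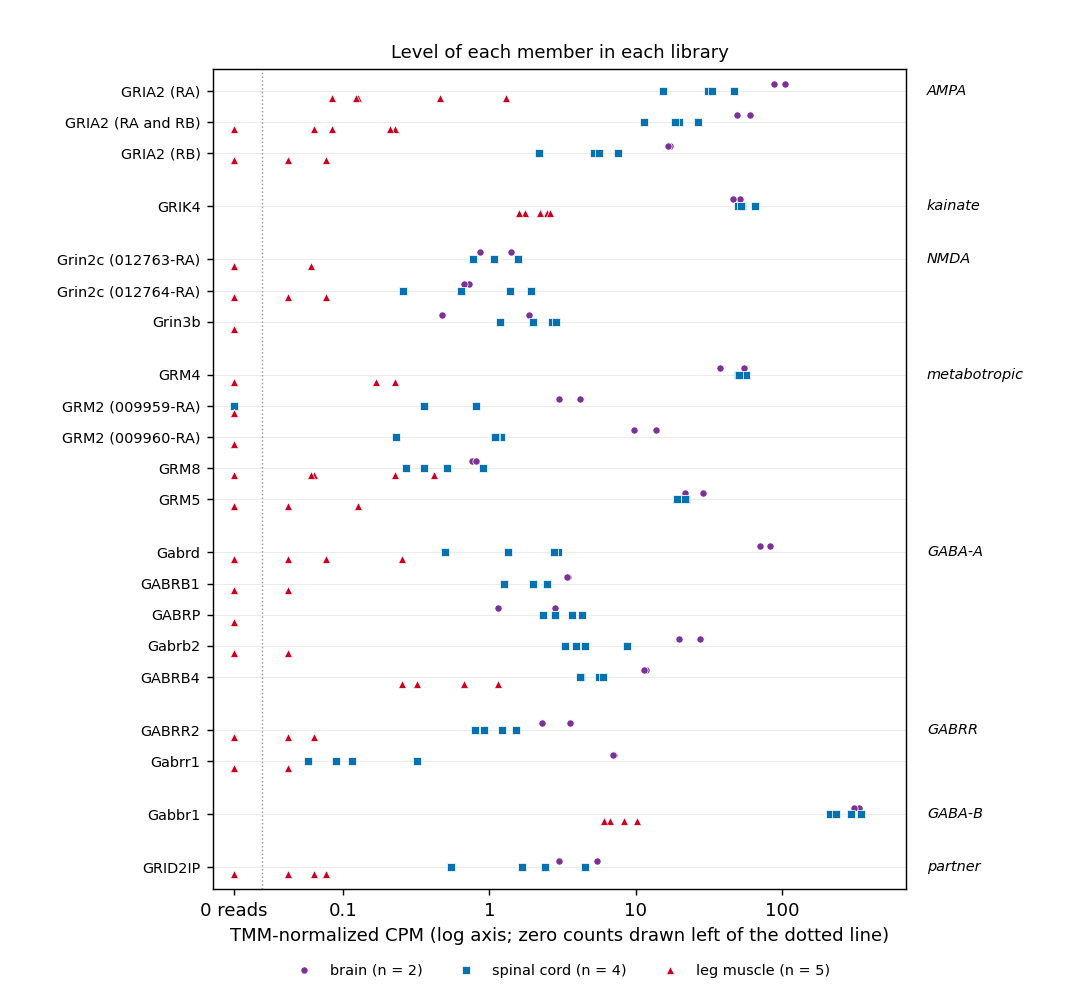
Level of each of the 21 members in each library, in TMM-normalized CPM on a log axis. Each point is 1 library of brain, spinal cord or leg muscle, libraries without reads are drawn left of the dotted line, and the receptor class is given at the right. The leg muscle points lie left of the brain points in all 21 members, and Gabrd and Gabrr1 separate the 2 brains from the 4 spinal cords by the widest gaps.

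The comparison of brain and spinal cord asks which receptor subunits differ between the 2 parts of the central nervous system. Of the 21 members, 4 were DEGs higher in brain, against 1.19% of all transcripts tested, and none was higher in spinal cord, against 0.84% of all transcripts. At an unadjusted p under 0.05 by edgeR the counts were 10 higher in brain and 0 higher in spinal cord. Over all 13923 transcripts tested they were 921 and 1003. The 10 include every GRIA2 row and both GRM2 rows, so they stand for fewer genes. No member was higher in spinal cord by DESeq2 or limma-voom either. The 4 DEGs encode the delta subunit and a beta subunit of the GABA-A receptor, a GABRR subunit and a metabotropic glutamate receptor. The median Log2FC (brain over spinal cord) was 0.97 over the members and 0 over all transcripts tested.

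Gabrd encodes the delta subunit, which in mammals forms GABA-A receptors outside the synapse that respond to low ambient GABA and is abundant in cerebellar granule cells. Its level was 82.6 and 70.1 CPM in the 2 brains. In the spinal cords it was 2.95, 1.34, 0.494 and 2.78 CPM. The lowest brain was thus far above the highest spinal cord, and spinal cord library 3 was the lowest of all 6. Log2FC was 5.33 (SE 0.71, adjusted p = 0.0028 by edgeR). The call held in each alternative setting and without each single library, where the Log2FC ranged from 5.03 to 5.64.

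The beta subunits, which in mammals carry part of the GABA binding site, did not share this pattern to the same extent. Gabrb2 was at 27.2 and 19.8 CPM in brain and at 8.65, 3.88, 4.51 and 3.26 CPM in spinal cord. The groups did not overlap, and spinal cord library 1 was the nearest to the brains. Log2FC was 2.21 (SE 0.48, adjusted p = 0.039 by edgeR), and the call was lost with the replicate number as a block (adjusted p = 0.21). This call was lost with library totals alone as the scaling (adjusted p = 0.066), without brain library 1 (0.28) or 2 (0.21), without spinal cord library 2 (0.11), 3 (0.11) or 4 (0.08), and without both lane 2 libraries (0.088).

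Another 3 GABA-A subunits did not pass the test between brain and spinal cord. GABRB4, a beta subunit known from birds, was at 11.7 and 11.4 CPM in brain and 4.12 to 5.93 CPM in spinal cord, without overlap (Log2FC = 1.22, 95% interval 0.18 to 2.26, adjusted p = 0.27 by edgeR). GABRB1 was at 3.43 and 3.39 CPM against 1.25 to 2.46 CPM (Log2FC = 0.97, 95% interval -0.28 to 2.22). GABRP encodes the pi subunit, known in mammals mainly from tissues outside the nervous system. It was at 2.79 and 1.15 CPM in brain and 2.33 to 4.30 CPM in spinal cord, with overlap of the libraries (Log2FC = -0.73, 95% interval -2.10 to 0.63).

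GABRR subunits form GABA-gated channels, once called GABA-C receptors, that in mammals are best known from the retina. Gabrr1 was at 7.10 and 7.03 CPM in brain, almost equal in both. In the spinal cords it was at 0.115, 0.0892, 0.0581 and 0.320 CPM, from 17 reads in all. Log2FC was 5.54 (SE 0.72, adjusted p = 0.0024 by edgeR). Without single libraries it ranged from 5.29 to 6.25, the latter without spinal cord library 4, which had the highest level of the 4. The call was lost with the replicate number as a block (adjusted p = 0.069 by edgeR). GABRR2, of the same family and with the ID before that of Gabrr1, was at 3.52 and 2.27 CPM in brain and 0.803 to 1.51 CPM in spinal cord (Log2FC = 1.37, SE 0.63, adjusted p = 0.36). Of 9 photoreceptor markers examined, 1 was found (PDE6C, a phosphodiesterase subunit of cones). It was at 2.49 and 3.36 CPM in brain and at 0.268, 0.134, 0 and 0 CPM in spinal cord. The part of such cells in the difference of Gabrr1 was not tested.

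Metabotropic glutamate receptor 2 dampens transmitter release in mammals and was represented by 2 rows with consecutive IDs. The files do not say whether these are 2 genes or 2 parts of 1. The row 009960-RA was at 9.75 and 13.6 CPM in brain and 0.230, 1.20, 1.10 and 1.09 CPM in spinal cord. No spinal cord came near the brains, and library 1 was the lowest. Log2FC of this GRM2 row was 3.68 (SE 0.64, adjusted p = 0.034 by edgeR). With the replicate number as a block it did not pass (adjusted p = 0.12 by edgeR). The call was lost without brain library 1 (adjusted p = 0.14) or 2 (0.29), without spinal cord library 2 (0.092), 3 (0.1) or 4 (0.08), and without both lane 2 libraries (0.09). The row 009959-RA of GRM2 was at 3.01 and 4.15 CPM in brain and at 0, 0.357, 0.814 and 0 CPM in spinal cord, and did not pass (Log2FC = 3.57, SE 1.40, adjusted p = 0.31).

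The other metabotropic receptors had levels in spinal cord that overlapped those of the brain. GRM4, which in mammals is presynaptic and abundant at parallel fibers of the cerebellum, was at 54.6 and 37.3 CPM in brain and 49.5, 55.9, 56.7 and 50.3 CPM in spinal cord (Log2FC = -0.21, 95% interval -1.43 to 1.01). GRM5, which is coupled to calcium release, was at 28.6 and 21.7 CPM against 19.2 to 22.1 CPM (Log2FC = 0.27, 95% interval -0.69 to 1.23). GRM8, a presynaptic receptor, was low in both, at 0.759 and 0.813 CPM against 0.268 to 0.901 CPM (Log2FC = 0.61, 95% interval -1.47 to 2.69).

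GRIA2 encodes the AMPA receptor subunit that limits calcium entry in mammals. It had 3 rows, 1 for transcript RA, 1 for RB and 1 for reads that fit both. The row of GRIA2 transcript RA was at 104 and 87.8 CPM in brain and 46.5, 15.2, 31.2 and 33.0 CPM in spinal cord. The 2 brains were above all 4 spinal cords in each of the 3 rows, and spinal cord library 2 was the lowest in each. Log2FC was 1.61 (SE 0.67), 1.53 (SE 0.45) and 1.72 (SE 0.50) for the RA, shared and RB rows, with adjusted p from 0.12 to 0.31 by edgeR, so none was a DEG. By limma-voom all 3 GRIA2 rows passed (adjusted p = 0.029, 0.012 and 0.0091), and by DESeq2 the shared and the RB row (adjusted p = 0.015 and 0.029). The edgeR result also depended on the leg muscle libraries in the fit. With only the 2 tissues compared, the shared row alone passed (adjusted p = 0.035 by edgeR). Without leg muscle libraries 1 and 5, a setting added after seeing the data, the RA row alone passed (adjusted p = 0.046 by edgeR). Summed over the rows, GRIA2 was at 168 ± 19.8 CPM in brain (SD, n = 2) and 55.6 ± 21.3 CPM in spinal cord (SD, n = 4). Of the reads given to 1 transcript, RA took 85.0% ± 1.15 in brain and 86.2% ± 0.83 in spinal cord. These shares lay between 84.2% (95% Wilson interval 83.0% to 85.3%) and 87.4% (83.8% to 90.4%) over the 6 libraries. Their intervals overlap but cover counting error only. A difference between the tissues in the use of the transcripts was not tested.

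The kainate, NMDA and GABA-B members did not differ beyond the spread between libraries. Gabbr1, the GABA-B subunit that binds GABA, was at 334 and 308 CPM in brain and 211, 345, 293 and 233 CPM in spinal cord (Log2FC = 0.25, 95% interval -0.39 to 0.88). GRIK4, a kainate receptor subunit, was at 51.1 and 46.3 CPM against 64.9, 49.8, 52.8 and 52.2 CPM (Log2FC = -0.17, 95% interval -0.73 to 0.38). For both genes the interval excludes a Log2FC of 1 in either direction. The NMDA rows had few reads. The 2 Grin2c rows (NMDA 2C subunit, consecutive IDs) were at 1.13 ± 0.37 and 0.701 ± 0.040 CPM in brain and 1.24 ± 0.39 and 1.05 ± 0.74 CPM in spinal cord. Grin3b, which encodes an NMDA receptor subunit that binds glycine, was at 1.85 and 0.476 CPM in brain and 1.18 to 2.85 CPM in spinal cord, and the 95% interval of its Log2FC was -2.64 to 0.84. The partner GRID2IP (delphilin), which in mice binds the delta glutamate receptor of Purkinje cells, was at 5.47 and 2.97 CPM in brain and 0.543 to 4.46 CPM in spinal cord (Log2FC = 0.90, 95% interval -0.61 to 2.41).

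**Figure D2:**
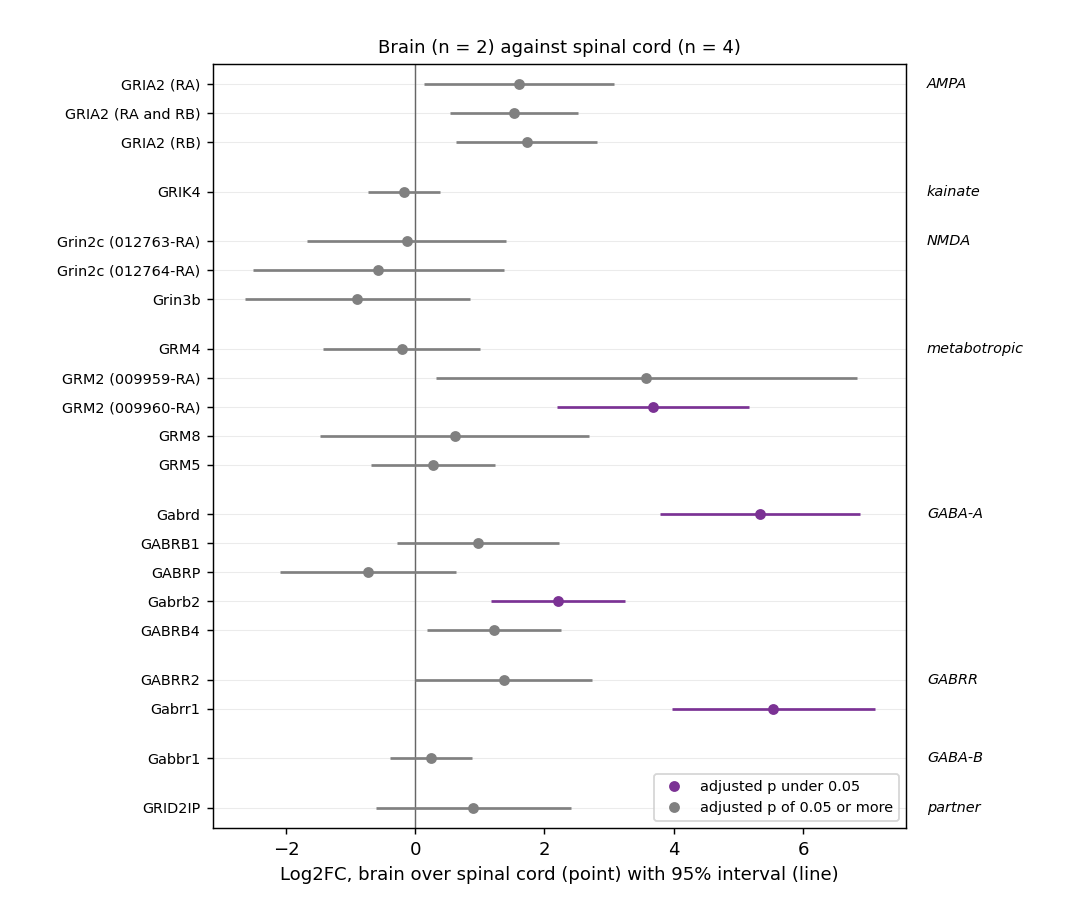
Log2FC of brain over spinal cord for the 21 members. Points are the fitted Log2FC and lines its 95% interval. Purple marks the 4 DEGs (Gabrd, Gabrr1, Gabrb2 and the GRM2 row 009960-RA), all at a Log2FC over 2. The intervals of Gabbr1 and GRIK4 are the narrowest and include 0.

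Cell types other than neurons also differed between these tissues. Markers of oligodendrocytes (5 of 8 symbols with rows, none at 0 in either tissue) summed to 1587 and 1899 CPM in brain and 6293 to 11493 CPM in spinal cord. Markers of neurons (5 of 10 symbols) summed to 1861 and 2302 CPM in brain and 1573 to 2398 CPM in spinal cord, so that these ranges overlapped. The part of these cell types in the differences of the members was not tested.

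Ratios of summed reads within a library do not depend on scaling, and because the lengths of the transcripts are not known only their difference between tissues is given. GABA-A over AMPA reads differed by 1.12 on the log2 scale (brain minus spinal cord), NMDA over AMPA by -2.22, metabotropic glutamate over AMPA by -1.48 and GABA-B over GABA-A by -2.52, with GABA-A summed over its 5 members. In each of the 4 ratios the brains lay apart from the spinal cords, with the smallest gap in GABA-A over AMPA, where spinal cord library 2 was next to the brains. The AMPA reads are those of GRIA2 alone and the GABA-B reads those of Gabbr1 alone. The ratios to AMPA thus share GRIA2 as denominator and are not independent of each other. GRIA2 was at 168 ± 19.8 CPM in brain and 55.6 ± 21.3 CPM in spinal cord, though none of its rows was a DEG. The metabotropic sums overlapped, at 96.7 and 77.6 CPM in brain and 70.5 to 81.6 CPM in spinal cord. The NMDA reads are those of Grin2c and Grin3b, at 2.02 to 6.33 CPM per brain or spinal cord library. The GABA-A reads are those of beta, delta and pi subunits, without an alpha or gamma subunit. The ratios thus compare the members and not whole receptor classes. Another 4 ratios were chosen after the values of the members had been seen. With Gabrd left out of the GABA-A sum, GABA-A over AMPA differed by -0.25 on the log2 scale and the tissues overlapped, so that its higher value in brain rested on Gabrd. GABA-B over GABA-A then differed by -1.16 in place of -2.52, without overlap. Gabrd over the 3 beta subunits Gabrb2, GABRB4 and GABRB1 differed by 3.91 and GRM2 over GRM4 by 4.25 on the log2 scale, each higher in both brains than in all 4 spinal cords. No test was run on the ratios.

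**Figure D3:**
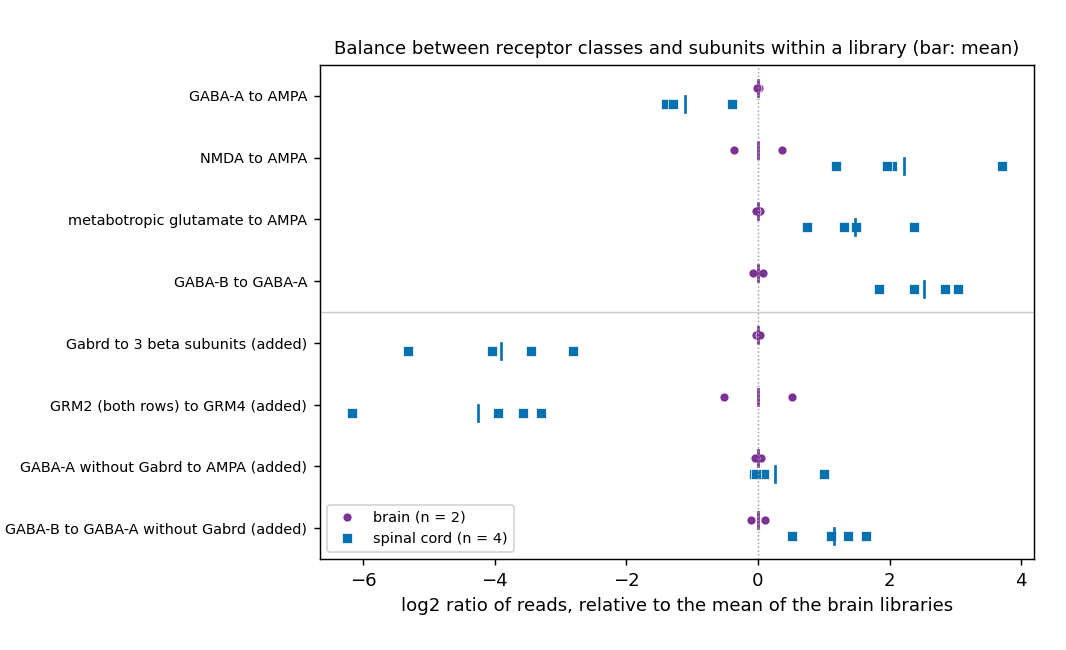
Log2 ratio of reads between receptor classes or subunits in each brain (n = 2) and spinal cord (n = 4) library, relative to the mean of the brains. Points are libraries and bars the mean of a tissue, and the 4 lower ratios were added after the values had been seen. Spinal cords lie below the brains for GABA-A over AMPA, Gabrd over 3 beta subunits and GRM2 over GRM4, overlap them for GABA-A without Gabrd over AMPA, and lie above them for the other 4.

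The comparisons with leg muscle ask how far these transcripts are confined to nervous tissue among the tissues sampled. Both comparisons use the same 5 leg muscles, so they are not independent of each other. Of the 21 members, 20 were DEGs higher in brain than in leg muscle, against 28.7% of all transcripts tested, and 0 were higher in leg muscle, against 21.9%. Likewise 20 were DEGs higher in spinal cord than in leg muscle, against 29.9% of all transcripts, and 0 were higher in leg muscle, against 25.7%. At an unadjusted p under 0.05 by edgeR none was higher in leg muscle. Of all 13923 transcripts, 3569 were so against brain and 3947 against spinal cord. No member was higher in leg muscle by DESeq2 or limma-voom either. The median Log2FC was 7.91 for brain over leg muscle and -6.28 for leg muscle over spinal cord, against 0.11 and -0.10 over all transcripts tested. With the members that had no reads in leg muscle set to their lower bounds the medians were 6.80 and -5.55. Scaling by library totals alone moved the median of all transcripts by 1.86 and -1.85, away from leg muscle, and all 21 members were then DEGs higher in each nervous tissue.

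The members fall into 3 groups by their reads in leg muscle. No read was counted for 4 rows (GABRP, Grin3b and both GRM2 rows), 1 to 3 reads over the 5 libraries for 7 rows, and more than 3 reads for 10 rows. Of the latter, 4 had a read in every leg muscle library, namely Gabbr1, GRIK4, GABRB4 and the RA row of GRIA2. Gabbr1 was at 6.09, 8.33, 6.70, 6.01 and 10.2 CPM in leg muscle, from 80 to 242 reads per library. GRIK4 was at 1.75, 2.48, 1.58, 2.20 and 2.61 CPM, and GABRB4 at 1.14, 0.318, 0.670, 0.254 and 0.674 CPM. All 5 leg muscles had these transcripts at low levels.

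All 3 were nevertheless much lower in leg muscle than in nervous tissue. For Gabbr1, Log2FC was 5.42 (SE 0.28, adjusted p = 1.3e-07) for brain over leg muscle and -5.18 (SE 0.26, adjusted p = 9e-08) for leg muscle over spinal cord, by edgeR. For GRIK4 it was 4.51 (SE 0.24, adjusted p = 1.5e-07) and -4.68 (SE 0.22, adjusted p = 7.4e-08). For GABRB4 it was 4.25 (SE 0.47, adjusted p = 1.7e-05) and -3.03 (SE 0.42, adjusted p = 7.6e-05), the smallest difference among the DEGs. Gabbr1 and GRIK4 together took 69.6% to 93.9% of the members' reads in leg muscle, against 47.5% and 50.2% in brain and 60.3% to 74.9% in spinal cord.

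The row of GRIA2 transcript RA was at 1.29, 0.127, 0.122, 0.0847 and 0.463 CPM in leg muscle, from 17, 2, 2, 2 and 11 reads. Leg muscle libraries 1 and 5 thus held most of its reads. Markers of neurons (5 of 10 symbols with rows, several MAP2 rows at 0) summed to 82.1 to 104 CPM in leg muscle libraries 1 to 4 and to 63.3 CPM in library 5, most of it gap43. The single markers differed in order. The RNA-binding protein elavl4 had 9, 0, 0, 1 and 73 reads and Stmn2, a protein of growing axons, had 31, 1, 3, 7 and 103, both highest in libraries 1 and 5 as was GRIA2. The synaptic protein SNAP25 had 6, 14, 5, 40 and 1 reads, lowest in library 5. This SNAP25 row was low in every tissue. It was at 3.04 and 2.77 CPM in brain, 0.288 to 0.936 CPM in spinal cord and 0.0421 to 1.69 CPM in leg muscle. In the same brains elavl4 was at 261 and 323 CPM and Stmn2 at 656 and 614 CPM. The SNAP25 row was not a DEG for leg muscle over spinal cord (Log2FC = 0.19, SE 0.75, adjusted p = 0.85 by edgeR). Nor was it a DEG for brain over leg muscle (Log2FC = 2.08, SE 0.85, adjusted p = 0.059 by edgeR). What the order of SNAP25 over the leg muscles reflects was not tested. The marker gap43, a DEG higher in both nervous tissues, was also lowest in library 5. Its levels in leg muscle libraries 1 to 5 were 87.4, 92.6, 99.1, 78.7 and 54.9 CPM. The 2 MAP2 rows with the most reads were highest in library 3, at 31 and 44 reads. The part of RNA of neurons in the reads of the members was not tested. A setting without libraries 1 and 5 was added after these values were seen. These libraries were picked for their GRIA2 reads, so lower leg muscle levels without them follow from the choice. In this setting 21 members were DEGs higher in brain and 20 higher in spinal cord. Against spinal cord GRM8 gained the call (adjusted p = 0.01 by edgeR) and the GRM2 row 009959-RA lost it (adjusted p = 0.083 by edgeR).

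Further members had their few leg muscle reads mostly in library 5. GRM8, named because it was the only member not called, was at 0.228, 0.0636, 0.0610, 0 and 0.421 CPM, and the last of these lay within the range of the spinal cords. Its Log2FC was 2.29 (SE 0.93, adjusted p = 0.059) for brain over leg muscle and -1.68 (SE 0.82, adjusted p = 0.1) for leg muscle over spinal cord. Without leg muscle library 5 both passed by edgeR (adjusted p = 0.015 and 0.024). GRM4 had 3 reads in library 1 and 4 in library 5, Gabrd 6 of its 8 reads in library 5, and GRM5 3 of its 4.

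Where leg muscle had at most 3 reads, the size of the difference is given by a bound or by a counting interval, which covers counting error only. Against a floor of 3 counts over the 5 leg muscles, the GRM2 row 009960-RA was at least 363-fold higher in brain and at least 28.4-fold higher in spinal cord. GABRP was at least 59.8-fold and at least 104-fold higher, and Grin3b at least 35.1-fold and at least 64.6-fold higher. The row 009959-RA of GRM2 was at least 111-fold higher in brain, and in spinal cord, where its 36 reads came from 2 of 4 libraries, at least 9.73-fold. Its call between leg muscle and spinal cord (adjusted p = 0.038 by edgeR) was lost in most settings, with adjusted p = 0.053 to 0.11 without single libraries of each tissue, and the libraries overlapped at 0.

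Gabrb2 had 1 read in leg muscle, a ratio of 2163 (95% interval 388 to 85474) for brain over leg muscle and 462 (82.6 to 18288) for spinal cord over leg muscle. Gabrr1, also with 1 read, had a ratio of 655 (117 to 25914) for the brain. For the spinal cord, with its 17 reads, the ratio of Gabrr1 was 13.8 (2.16 to 576). So Gabrr1 was near the limit of detection in both spinal cord and leg muscle. GABRB1 had a ratio of 316 (56.1 to 12530) in brain and 162 (28.8 to 6437) in spinal cord. The other members with 1 to 3 leg muscle reads (GABRR2, both Grin2c rows and the RB row of GRIA2) had ratios from 32.4 to 520.

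**Figure D4:**
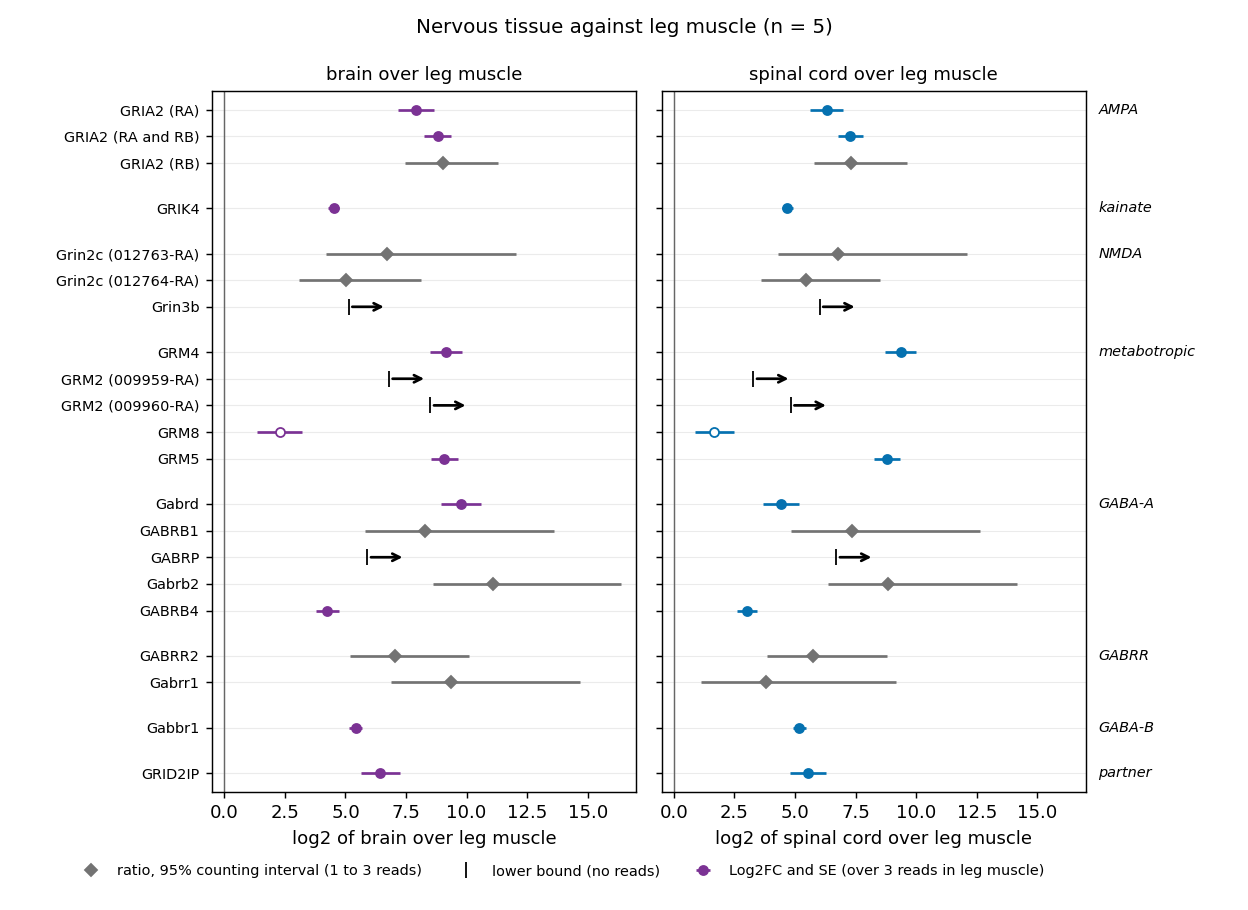
Log2 of brain (left) and spinal cord (right) over leg muscle for the 21 members. Colored points with lines are the Log2FC and its SE for members with over 3 reads in leg muscle, open where adjusted p was 0.05 or more (GRM8). Grey diamonds are ratios with 95% counting intervals for members with 1 to 3 reads, and arrows start at the lower bound of members without reads. All lie to the right of 0.

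Other members with over 3 reads in leg muscle had larger differences from it. GRM4 was at 45.9 ± 12.2 CPM in brain, 53.1 ± 3.72 in spinal cord and 0.0794 ± 0.111 in leg muscle (Log2FC = 9.15, SE 0.67, adjusted p = 8.8e-07 for brain over leg muscle). GRM5 had 25.2 ± 4.85 CPM in brain, 20.9 ± 1.32 in spinal cord and 0.0337 ± 0.0549 in leg muscle (Log2FC = 9.07, SE 0.56, adjusted p = 3e-07). Gabrd had another order of tissues, with a Log2FC of 9.76 (SE 0.82) for brain over leg muscle but -4.42 (SE 0.74) for leg muscle over spinal cord, both DEGs by edgeR. In Gabrd the spinal cord thus stood between brain and leg muscle, whereas in GRM4 and GRM5 spinal cord and brain overlapped.

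Partner genes were taken from 7 lists of proteins that assemble, anchor or supply these receptors, which gave 55 rows, 50 of them tested. Between brain and spinal cord 2 of the 50 rows were DEGs higher in brain, against 1.19% of all transcripts tested. In spinal cord 1 was higher, against 0.84%. The median Log2FC of the 50 rows was 0.43. KCTD12, an auxiliary subunit of GABA-B receptors, was at 97.7 and 83.6 CPM in brain and 18.8 to 34.8 CPM in spinal cord (Log2FC = 1.83, SE 0.35, adjusted p = 0.022 by edgeR), although the receptor subunit Gabbr1 itself was not a DEG. The glial glutamate transporter SLC1A3 had 2 rows that went in opposite directions. The row 003811-RA was at 6.16 ± 1.94 CPM in brain and 0.181 ± 0.145 CPM in spinal cord (Log2FC = 5.05, SE 0.93, adjusted p = 0.017). The row 015220-RA of SLC1A3, with far more reads, was at 325 and 283 CPM in brain and 511 to 916 CPM in spinal cord, without overlap, and did not pass (Log2FC = -1.19, SE 0.46, adjusted p = 0.26). The glycine transporter slc6a9, which clears glycine from the extracellular space, was the DEG higher in spinal cord, at 76.7, 198, 188 and 69.4 CPM against 24.4 and 18.6 CPM in brain (Log2FC = -2.63, SE 0.47, adjusted p = 0.016). These 3 calls were lost without 1 or more single libraries, where between 0 and 3 rows were higher in brain and 0 or 1 in spinal cord.

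Between brain and spinal cord, 1.19% of all transcripts tested were DEGs higher in brain and 0.84% higher in spinal cord. Among the partners of AMPA and kainate receptors, 0 of 10 were DEGs between these tissues. CACNG8, an AMPA receptor auxiliary subunit, came nearest (Log2FC = 3.21, SE 0.64, adjusted p = 0.053), and CACNG2, of the same family, was at 20.4 ± 0.696 CPM in brain and 19.3 ± 4.39 in spinal cord. None of 5 rows of the excitatory postsynaptic scaffold, 2 of delta receptor partners or 4 of chloride carriers was a DEG between these tissues. In the list of GABA and glycine receptor partners it was 1 of 10 rows, in that of glutamate release and uptake 1 of 10, and in that of GABA and glycine synthesis and transport 1 of 9. GAD1, which makes GABA, was at 172 and 93.3 CPM in brain and 25.1 to 43.5 CPM in spinal cord but did not pass (Log2FC = 1.95, SE 0.53, adjusted p = 0.098).

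Against leg muscle, 41 of the 50 partner rows were DEGs higher in brain and 40 higher in spinal cord. Over all transcripts tested the shares were 28.7% and 29.9%. In either comparison 0 partner rows were higher in leg muscle, against 21.9% (beside brain) and 25.7% (beside spinal cord) of all transcripts. All 10 AMPA and kainate receptor partners were higher in both nervous tissues, as were the 2 delta receptor partners CBLN1 and CBLN2. LHFPL4, which in mammals anchors GABA-A receptors at synapses, had no reads in leg muscle and 39.5 ± 2.02 CPM in brain and 30.5 ± 7.78 in spinal cord. The vesicular transporter of GABA and glycine, slc32a1, was at 276 ± 23.2, 233 ± 43.0 and 0.0641 ± 0.0880 CPM in brain, spinal cord and leg muscle (Log2FC = 11.96, SE 0.66, adjusted p = 1.8e-07 for brain over leg muscle). Gphn, which encodes the scaffold protein gephyrin, was also found in leg muscle, at 33.2 ± 6.50 CPM against 295 ± 17.3 in brain (Log2FC = 3.15, SE 0.23, adjusted p = 8e-07). The partners that did not pass in either comparison with leg muscle include DLG1, GLDC and the 3 tested rows of GLUL, which serve functions outside synapses too.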

How the data were processed

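RNA from 11 tissue samples was sequenced after poly(A) selection with a stranded kit. Per the study's methods, the authors used STAR to align reads to their own assembly and htseq-count to count at the level of transcripts. The deposited tables hold these raw counts, 1 file per library, without normalization. The strand setting of htseq-count is not given in the sources used here. The deposited annotation (22603 entries) gave symbols, and 1432 rows stand for sets of transcripts that share reads. Summary lines of htseq-count, 49.4% to 70.0% of entries per library for reads outside features alone, were left out.

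Counts were analysed in R 4.3.3 with edgeR 4.0.16. Transcripts were kept by filterByExpr (minimum count 10, minimum total 15), scaled by TMM, and fitted with glmQLFit with 1 coefficient per tissue over all 11 libraries. The 3 pairs of tissues were compared with glmQLFTest and Benjamini-Hochberg adjustment at 0.05 over 13923 transcripts. SE was derived from the F statistic. Floors are 3 counts. Both they and the 95% counting intervals describe counting error alone. Between any 2 libraries of a tissue, chi-square divided by its degrees of freedom was at least 68.9, so no 2 libraries were duplicates. The members, the 7 partner lists and the 8 marker lists (neuron, oligodendrocyte, astrocyte, skeletal muscle, Schwann cell, photoreceptor, red blood cell and neuromuscular junction) were chosen with earlier results of these data known. Summed levels of astrocyte markers were 371 to 406 CPM in brain, 636 to 1103 in spinal cord and 108 to 214 in leg muscle. They cover 5 of 8 symbols. The largest part came from the SLC1A3 row 015220-RA in brain and spinal cord. In leg muscle it came from the Aqp4 row 005877-RA, which had no reads in brain. In the same order, Schwann cell markers, with 2 of 7 symbols found, summed to 31.0 to 33.4, 85.5 to 137 and 12.0 to 22.9 CPM. Most of this was sox10, which is also in the oligodendrocyte list. The other marker, PRX, was highest in leg muscle, with means of 0.218, 2.04 and 5.01 CPM. Red blood cell markers summed to 1004 to 2455, 933 to 4698 and 3357 to 9769 CPM. Neuromuscular junction markers summed to 0.972 to 1.63, 1.07 to 3.16 and 137 to 330 CPM. Some items, 1 row that met the rule among them, are not reported here and entered no count over members or markers, although the fit and its adjustment used every row.

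Named with values are members that were DEGs between brain and spinal cord or higher in leg muscle, up to 4 members per class with the lowest p against leg muscle, the most abundant member of each class, and up to 4 genes per partner list, comparison and direction. GRM8 falls outside this rule and was named after its values were seen. No sequence is printed, since no reference was used here.

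Alternatives were RLE size factors, library totals alone, DESeq2 1.42.0, limma-voom (limma 3.58.1), a filter of 10 or more counts in 5 or more libraries, or none, gene-level sums, fits restricted to 2 tissues, a replicate block, leaving out the lane 2 libraries, and leaving out each library in turn. A setting without leg muscle libraries 1 and 5, and class ratios without Gabrd, were added after seeing the data. The fit was checked on simulated counts with 200 changed transcripts. Simulated levels were the means over all 11 libraries, and the other transcripts did not differ between tissues. In the data many more transcripts differed between nervous tissue and leg muscle, so the rates of recovery need not hold for the members. Between brain and spinal cord, 0% of 2-fold, 17.9% of 4-fold and 51.5% of 8-fold changes were recovered, with 1 false call among 13498 transcripts.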

Additional observations from a re-analysis of the deposited data

Results flagged for a closer look

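Of 27 groups of 4 or 5 libraries in which a member had enough reads to be examined, 1 held a library far from the others, and chance alone flags about 1 in 20. In the spinal cord, library 1 was the lowest for the GRM2 row 009960-RA, at 0.230 CPM, while the other 3 lay between 1.09 and 1.20 CPM. The cause was not tested.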

How the results depend on the processing

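The count of members higher in brain than in spinal cord (4) was 9 by limma-voom, 6 by DESeq2, 1 with a replicate block, 2 without the lane 2 libraries, and 2 to 4 with single libraries left out. Under the block Gabrd kept its call, and adjusted p by edgeR was 0.069 for Gabrr1, 0.21 for Gabrb2 and 0.12 for the GRM2 row 009960-RA. Gabrr1 could not be tested with at least 10 counts in at least 5 libraries. Same-numbered libraries correlated at -0.049 to 0.217, and brain library 1 correlated best with spinal cord library 3 (0.277). Neither labels nor correlations settle whether a number marks a frog, so the block was kept as an alternative. It also changed the call of GRM8 against leg muscle (adjusted p = 0.036) and of the GRM2 row 009959-RA between leg muscle and spinal cord (0.06).

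Members higher in brain than in leg muscle numbered 20 to 21, and in spinal cord than in leg muscle 19 to 20, with single libraries left out. Members without a call between brain and spinal cord that changed sign were GRM4 (-0.52 to 0.037 with single libraries left out) and the Grin2c rows 012763-RA (0.28 without lane 2, -0.53 to 0.17 with single libraries left out) and 012764-RA (0.61 without lane 2). Class balances ranged over single libraries left out from 1.02 to 1.36 (GABA-A to AMPA), -2.59 to -1.73 (NMDA), -1.73 to -1.18 (metabotropic) and -2.76 to -2.35 (GABA-B to GABA-A). With Gabrd left out of the GABA-A sum, chosen after seeing the data, GABA-A to AMPA was -0.25 and GABA-B to GABA-A -1.16.

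Partner rows higher in brain than in spinal cord (2) were 1 by library totals, 6 by DESeq2, 8 by limma-voom, 9 with only these tissues, 1 with the block, 0 without lane 2, 6 without leg muscle libraries 1 and 5, and 0 to 3 with single libraries left out. Those higher in spinal cord (1) were 0 by totals, 2 by DESeq2, limma-voom or only these tissues, 0 with the block, and 0 to 1. Those higher in leg muscle than in spinal cord (0) were 1 by DESeq2, the block or without leg muscle libraries 1 and 5, and 0 to 1. The cause of these shifts was not tested. With 2 brains, many differences of 8-fold or less between brain and spinal cord may be missed, although Gabrb2, KCTD12 and slc6a9 passed below that size.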

Other observations

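One row outside the rule carries no gene symbol and is annotated as a probable glutamate receptor of the frog Lithobates berlandieri (003215-RA). It was picked after its values were seen. Its level was 283 and 309 CPM in the brains and 557, 457, 614 and 651 CPM in the spinal cords, so both brains lay below all 4 spinal cords. It did not pass the test between them (Log2FC = -0.95, SE 1.16, adjusted p = 0.81 by edgeR). The spread in this test also includes that of the leg muscles, so the result does not show that brain and spinal cord are alike. In leg muscle it was at 0, 0.0636, 0.183, 2.12 and 4.76 CPM, and it was a DEG higher in brain (Log2FC = 7.63, adjusted p = 0.0002) and in spinal cord (leg muscle over spinal cord -8.58, adjusted p = 6.4e-05). Libraries 4 and 5 held nearly all of its leg muscle reads, 50 and 113 of 167.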
